A study of Saccharomyces cerevisiae with 18 samples.

Results

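Transcript levels of 47 genes for the synthesis of amino acids other than cysteine and methionine were followed in 4 groups of yeast cultures. The genes are *GCN4*, the transcriptional activator of these pathways, and the enzyme genes of arginine (8 genes), histidine (7), leucine (4), isoleucine and valine (7), lysine (7), tryptophan (4) and the common aromatic, phenylalanine and tyrosine branches (9). They were matched by gene symbol in the annotation of the arrays, from a list drawn up with earlier results of these data known. All 47 were found, each with 1 probe set, among the 5698 genes of *Saccharomyces cerevisiae* that were tested.

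The 4 groups were W303-Δ*sky1* with cisplatin, W303 with cisplatin, untreated W303-Δ*sky1* and untreated W303. W303 is a laboratory strain of mating type a, and W303-Δ*sky1* is its derivative without *SKY1*, the gene of a protein kinase that acts on serine- and arginine-rich proteins. The platinum drug cisplatin was given at 600 µM for 4 h, and untreated cultures received only its solvent, DMSO. Cells grew in complete synthetic medium, and each culture was divided into a treated and an untreated aliquot, in 3 biological replicates. Both strains carry the alleles can1-100 and ade2-1, with ura3-52 as well as trp1-100, and a mutant allele of *leu2*, and the study's methods add a mutant *his3* allele. Transcript levels of *LEU2* and *HIS3* are therefore no measure of a working enzyme. The marker that replaced *SKY1* and the number of deletion clones are not given in the sources used here.

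Yeast makes every amino acid when the medium lacks it, and each pathway ends in an enzyme chain whose first step is usually inhibited by the end product. When amino acids run short, uncharged tRNAs activate the kinase Gcn2, general translation falls and the translation of *GCN4* mRNA rises, so that Gcn4 switches on enzyme genes of many pathways at once. This response is called general amino acid control. Most of that control acts on the translation of *GCN4*, so the level of its mRNA on an array is not a measure of Gcn4 activity. Single pathways also have regulators of their own, such as Leu3 for leucine, Lys14 for lysine and Aro80 for the breakdown of aromatic amino acids.

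RNA was measured on 12 Affymetrix GeneChip yeast arrays, and the authors summarized them with RMA, a method that corrects the background, equalizes the arrays of a run and gives each probe set 1 log2 value. They did so in 3 runs of 6 arrays, one for each comparison, and every W303 array thus has a value in a pair of tables. All tests were made within a table with limma, 3 arrays against 3. "Higher" and "lower", or "rose" and "fell", are used for genes with a Benjamini-Hochberg adjusted p under 0.05 over all 5698 genes, and a differentially expressed gene (DEG) also changed at least 1.6-fold (0.68 on the log2 scale) with an unadjusted p under 0.01. The 95th percentile of the *Schizosaccharomyces pombe* probe sets, which have no target here, was 1.24 to 1.34 on the log2 scale. All 47 genes lay above it on every array, the lowest at 3.20. The replicate arrays agreed closely (r of 0.992 to 0.998), and *SKY1* read 7.98 to 8.18 on the 6 W303 arrays and 0.54 to 1.43 on the 6 W303-Δ*sky1* arrays. The 5 marker genes of mating type a read 6.03 to 9.98 and the 3 of mating type α 1.07 to 2.65. The a markers were lower in W303-Δ*sky1* than in W303 with and without cisplatin, except *MFA1* without it (-0.04, adjusted p = 0.65). *MFA2* differed most among them, by -1.67 untreated and -1.80 under cisplatin. Signals are relative to the RNA hybridized, so that a larger share of a transcript and more of it per cell cannot be told apart.

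With cisplatin in W303, 10 of the 47 genes were higher and 10 lower, or 21.3% each, beside 13.2% and 15.3% of all genes tested. A single DEG rose, *ARG7*, and a single one fell, *LYS4*, where 1.58% and 1.53% of all genes did. The median log2 difference of the 47 genes was -0.02, and that of all genes tested -0.00. The count of higher genes was 6 without W303 cisplatin replicate 1, 2 or 3, and 6 without W303 untreated replicate 3, when the calls of *ARG5,6*, *HIS4*, *TRP5* and *ARO9* were lost. In untreated W303-Δ*sky1* against untreated W303, 22 genes were higher and 7 lower (46.8% and 14.9%), beside 24.9% and 27.4% of all genes. The median difference was 0.16, and -0.02 over all genes. DEGs were *ARG1*, *ARG3*, *ARG5,6*, *ILV3* and *ARO4*, which rose, and *LYS4* and *ARO9*, which fell, against 4.93% and 5.28% of all genes. Between the treated strains the order turned, with 14 genes higher and 23 lower in W303-Δ*sky1* (29.8% and 48.9%), beside 32.8% and 37.8% of all genes. Here the median was -0.12, and -0.03 over all genes. The DEGs were *ARG3* and *ARO4*, which rose, and *LYS1*, *LYS4*, *LYS9*, *LYS20*, *ARO9* and *PHA2*, which fell, where 8.78% and 11.2% of all genes passed. The cisplatin comparison shares its W303 arrays with both strain comparisons, which share none with each other.

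**Figure D1:**
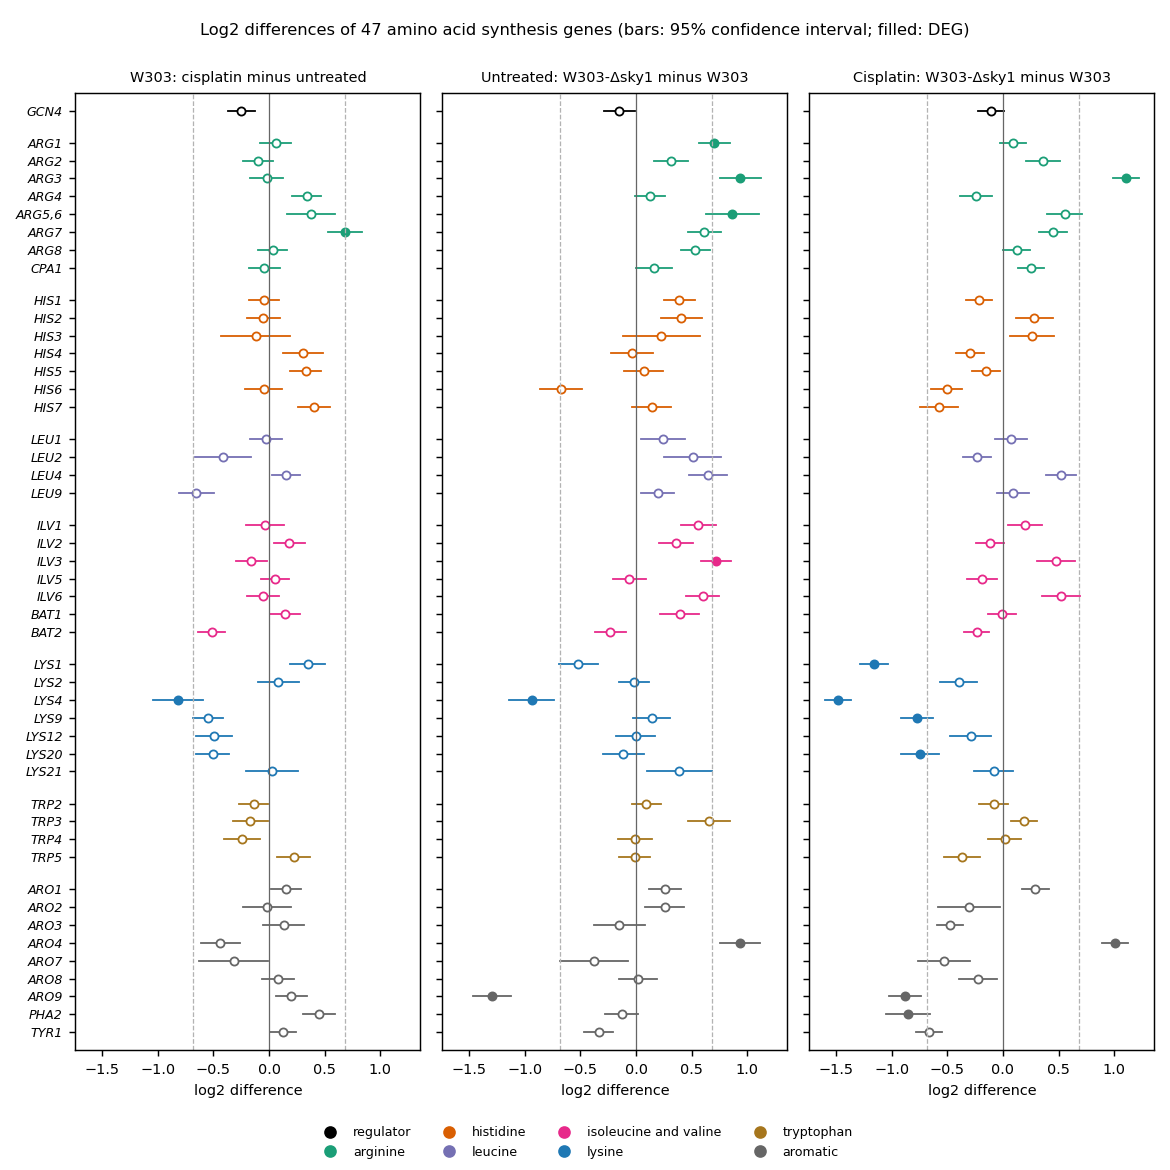
Log2 differences of the 47 genes in the 3 comparisons, by pathway. Points are differences of group means of 3 arrays each on the log2 scale, bars are 95% confidence intervals from limma, filled points are DEGs and dashed lines mark 1.6-fold. Most genes lay within the dashed lines in each comparison, and *LYS4* reached -1.48 between the treated strains.

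*GCN4* was lower with cisplatin in W303 by a small step. It read 11.67, 11.62 and 11.71 on the treated W303 arrays, against 11.91, 11.88 and 11.95 on the untreated W303 arrays. All 3 treated arrays lay below all 3 untreated ones, and the log2 difference was -0.25 with a standard error (SE) of 0.054 (1.19-fold lower, adjusted p = 0.0125). That p was 0.0632 without W303 cisplatin replicate 2 and 0.0559 without W303 untreated replicate 3. Between the untreated strains it read 11.89, 11.81 and 11.93 on the W303-Δ*sky1* arrays without drug, against 12.01, 12.02 and 12.06 on the W303 arrays without drug, a difference of -0.15 (SE 0.060) with an adjusted p of 0.064. Under cisplatin it read 11.64, 11.57 and 11.58 on the treated W303-Δ*sky1* arrays, against 11.72, 11.67 and 11.73 on the treated W303 arrays, a difference of -0.11 (SE 0.052) with an adjusted p of 0.0861. Neither strain difference passed the test, although the groups did not overlap in either.

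Arginine genes made up 3 of the 5 DEGs that rose in untreated W303-Δ*sky1*. There 6 of the 8 (75%) were higher and none lower, with a median difference of 0.57, beside 24.9% and 27.4% of all genes. The pathway builds ornithine from glutamate through acetylated intermediates in mitochondria, and *ARG3*, *ARG1* and *ARG4* then turn ornithine into arginine in the cytosol. *ARG3*, ornithine carbamoyltransferase, read 8.95, 9.03 and 9.05 on the W303-Δ*sky1* arrays without drug, against 7.92, 8.15 and 8.15 on the W303 arrays without drug. The difference was 0.93 (SE 0.079), or 1.91-fold (adjusted p = 9.53e-05), with no overlap between the groups. *ARG5,6*, whose product is cut into the second and the third enzyme of the pathway, read 9.05, 9.12 and 9.19 on the W303-Δ*sky1* arrays without drug, against 8.05, 8.46 and 8.25 on the W303 arrays without drug. It was 1.82-fold higher (0.87, SE 0.10, adjusted p = 0.000356), and its W303 arrays were spread more widely than its W303-Δ*sky1* arrays. *ARG1*, argininosuccinate synthetase, read 10.91, 10.85 and 10.84 on the W303-Δ*sky1* arrays without drug, against 10.12, 10.22 and 10.13 on the W303 arrays without drug, which is 1.63-fold higher (0.70, SE 0.061, adjusted p = 0.0001).

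The other arginine genes moved less in the untreated strains. *ARG7*, ornithine acetyltransferase, was higher by 0.61 (SE 0.065) (adjusted p = 0.000212), just under the DEG threshold. *ARG8*, acetylornithine aminotransferase, was higher by 0.53 (SE 0.057) (adjusted p = 0.000218). *ARG2*, acetylglutamate synthase, was higher by 0.31 (SE 0.067) (adjusted p = 0.00564). Both remaining genes missed the threshold with all W303-Δ*sky1* arrays above all W303 arrays. *CPA1*, the small subunit of the carbamoyl phosphate synthase that serves arginine, differed by 0.16 (SE 0.069) (adjusted p = 0.0839), and *ARG4*, argininosuccinate lyase, by 0.12 (SE 0.058) (adjusted p = 0.112).

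Under cisplatin the arginine genes of W303-Δ*sky1* split. Of the 8, 5 were higher and 1 lower than in treated W303, with a median of 0.30. That is 62.5% and 12.5%, beside 32.8% and 37.8% of all genes. *ARG3* kept its difference, reading 9.03, 9.08 and 9.08 on the treated W303-Δ*sky1* arrays, against 7.94, 7.95 and 8.00 on the treated W303 arrays. At 2.15-fold (1.10, SE 0.051, adjusted p = 5.02e-07), it was the largest increase of the 47 genes in this comparison. *ARG1* read 10.23, 10.21 and 10.16 on the treated W303-Δ*sky1* arrays, against 10.13, 10.14 and 10.06 on the treated W303 arrays, and its difference of 0.09 (SE 0.052) did not pass the test (adjusted p = 0.149). *ARG1* was thus 1.63-fold higher without the drug, while the 1.07-fold with it did not pass, although the groups did not overlap. No test compared these differences with each other. *ARG5,6* was higher by 0.55 (SE 0.067) (adjusted p = 9.44e-05) and *ARG7* by 0.45 (SE 0.054) (adjusted p = 8.92e-05). *ARG4* went the other way, reading 10.81, 10.63 and 10.70 on the treated W303-Δ*sky1* arrays, against 11.01, 10.90 and 10.96 on the treated W303 arrays, and was lower (-0.24, SE 0.064, adjusted p = 0.00816).

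With cisplatin in W303, 3 of the 8 arginine genes (37.5%) rose and none fell, with a median of 0.05. Of all genes, 13.2% rose and 15.3% fell. *ARG7* was the only DEG among the 47 genes that rose with the drug. It read 8.47, 8.53 and 8.45 on the treated W303 arrays, against 7.75, 7.91 and 7.75 on the untreated W303 arrays, a difference of 0.68 (SE 0.064) or 1.6-fold (adjusted p = 0.000397). The groups were well apart, but the difference stood right at the fold threshold and was 0.66 without W303 cisplatin replicate 2, W303 untreated replicate 1 or W303 untreated replicate 3. *ARG5,6* read 8.80, 8.77 and 8.75 on the treated W303 arrays, against 8.21, 8.58 and 8.40 on the untreated W303 arrays and rose by 0.38 (SE 0.092) (adjusted p = 0.02, between 0.0581 and 0.0664 without any one of the W303 cisplatin arrays or W303 untreated replicate 3). *ARG4* rose by 0.34 (SE 0.055) (adjusted p = 0.00412). The 3 genes that were DEGs between the untreated strains thus did not move together with the drug. *ARG3* read 8.05, 8.05 and 8.09 on the treated W303 arrays, against 7.97, 8.14 and 8.14 on the untreated W303 arrays, with no difference beyond its spread (adjusted p = 0.813). *ARG1* read 10.26, 10.24 and 10.18 on the treated W303 arrays, against 10.16, 10.24 and 10.11 on the untreated W303 arrays, and these groups overlapped as well (adjusted p = 0.475).

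**Figure D2:**
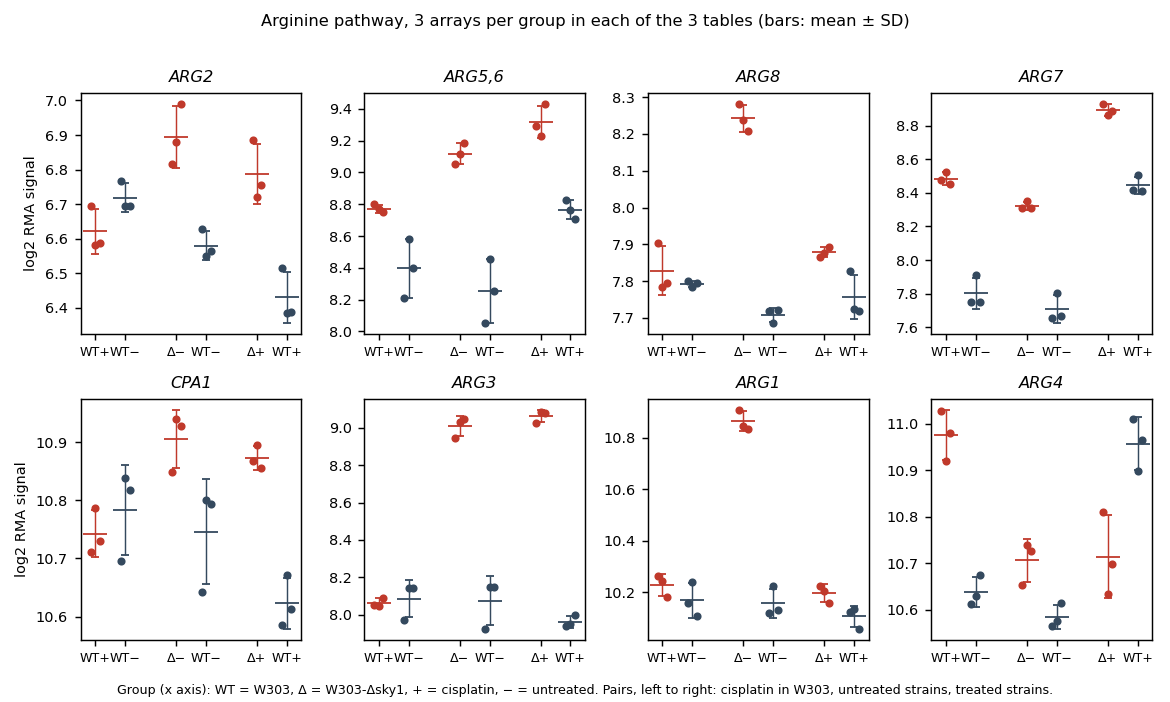
Log2 RMA signals of the 8 arginine genes on every array, with the mean and SD of each group of 3. WT is W303, Δ is W303-Δ*sky1*, + is cisplatin and − untreated. The pairs show cisplatin in W303, the untreated strains and the treated strains, each from its own table. *ARG3* stood at 8.95 to 9.08 in all W303-Δ*sky1* arrays and at 7.92 to 8.15 in all W303 arrays.

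Between the treated strains, lysine had the lowest median of the pathways. In that comparison 6 of the 7 were lower, 4 of them DEGs, and the median was -0.74, beside -0.03 over all genes. Of all genes, 37.8% were lower and 11.2% were DEGs that fell. Yeast makes lysine from α-ketoglutarate through α-aminoadipate: homocitrate synthase (*LYS20*, *LYS21*) opens the chain, homoaconitase (*LYS4*) and homoisocitrate dehydrogenase (*LYS12*) follow in mitochondria, and α-aminoadipate reductase (*LYS2*) and the pair of saccharopine dehydrogenases (*LYS9*, *LYS1*) finish it. *LYS4* was a DEG in all 3 comparisons. Under cisplatin it read 6.63, 6.56 and 6.61 on the treated W303-Δ*sky1* arrays, against 8.08, 8.06 and 8.11 on the treated W303 arrays. This was the largest difference of the 47 genes in any comparison, 2.79-fold lower (-1.48, SE 0.051, adjusted p = 1.99e-07), and the arrays of each group lay close together. Between the untreated strains *LYS4* read 8.12, 8.15 and 8.13 on the W303-Δ*sky1* arrays without drug, against 9.20, 8.88 and 9.12 on the W303 arrays without drug. It was 1.91-fold lower there (-0.94, SE 0.087, adjusted p = 0.000132), although W303 untreated replicate 2 lay below the other W303 arrays. In the drug comparison of W303 *LYS4* read 8.29, 8.23 and 8.28 on the treated W303 arrays, against 9.25, 8.87 and 9.15 on the untreated W303 arrays, 1.76-fold lower (-0.82, SE 0.096, adjusted p = 0.000964).

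*LYS1*, which releases lysine in the last step, moved in opposite ways with the drug and with the deletion. The drug comparison shares W303 arrays with each strain comparison. With cisplatin in W303 it read 9.79, 9.76 and 9.76 on the treated W303 arrays, against 9.51, 9.30 and 9.47 on the untreated W303 arrays and rose by 0.35 (SE 0.068) (adjusted p = 0.00851). It was the only lysine gene that rose with the drug. Between the untreated strains it read 8.82, 8.91 and 8.90 on the W303-Δ*sky1* arrays without drug, against 9.51, 9.28 and 9.40 on the W303 arrays without drug, a difference of -0.52 (SE 0.075) (adjusted p = 0.000866). Under cisplatin it read 8.63, 8.52 and 8.52 on the treated W303-Δ*sky1* arrays, against 9.73, 9.70 and 9.70 on the treated W303 arrays and was 2.23-fold lower in W303-Δ*sky1* (-1.15, SE 0.055, adjusted p = 5.38e-07). The treated strains were thus more than a full log2 unit apart, with no overlap.

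*LYS9* and *LYS20* were lower in W303-Δ*sky1* under cisplatin and did not pass the test without it, and the change between these differences was not tested. *LYS9*, the saccharopine dehydrogenase that forms saccharopine, read 7.53, 7.35 and 7.35 on the treated W303-Δ*sky1* arrays, against 8.19, 8.18 and 8.17 on the treated W303 arrays. It was 1.70-fold lower (-0.77, SE 0.063, adjusted p = 9.71e-06), with replicate 1 of W303-Δ*sky1* somewhat above the others. Untreated, it read 8.78, 8.92 and 8.98 on the W303-Δ*sky1* arrays without drug, against 8.80, 8.77 and 8.68 on the W303 arrays without drug, a difference of 0.14 (SE 0.073) with overlapping groups (adjusted p = 0.139). *LYS20* read 7.13, 7.27 and 6.99 on the treated W303-Δ*sky1* arrays, against 7.91, 7.85 and 7.86 on the treated W303 arrays, 1.67-fold lower (-0.74, SE 0.075, adjusted p = 3.18e-05), and -0.67, short of the DEG threshold, without W303-Δ*sky1* cisplatin replicate 3. The groups were well separated. Untreated, *LYS20* read 8.29, 8.46 and 8.30 on the W303-Δ*sky1* arrays without drug, against 8.43, 8.58 and 8.38 on the W303 arrays without drug (difference -0.11, SE 0.079, adjusted p = 0.255), and these groups overlapped.

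With cisplatin in W303 13.2% of all genes rose and 15.3% fell. Of the 7 lysine genes, 1 rose (14.3%) and 4 fell (57.1%), with a median of -0.49. Besides *LYS4*, these were *LYS9* (-0.55, SE 0.057, adjusted p = 0.000588), *LYS20* (-0.51, SE 0.065, adjusted p = 0.00146) and *LYS12* (-0.49, SE 0.069, adjusted p = 0.00205). All 4 had every treated array below every untreated one. *LYS9* read 8.30, 8.27 and 8.27 on the treated W303 arrays, against 8.87, 8.86 and 8.74 on the untreated W303 arrays. *LYS20* read 7.99, 7.92 and 7.94 on the treated W303 arrays, against 8.43, 8.57 and 8.38 on the untreated W303 arrays. *LYS2* and *LYS21* did not pass the test, with differences of 0.08 and 0.02. Between the treated strains *LYS12* (-0.29, SE 0.080, adjusted p = 0.0105) and *LYS2* (-0.40, SE 0.072, adjusted p = 0.00108) were lower without reaching 1.6-fold. *LYS21* was the lysine gene that did not pass there (-0.09, SE 0.076, adjusted p = 0.342), and it was higher in untreated W303-Δ*sky1* (0.39, SE 0.13, adjusted p = 0.0334). That call was lost without W303-Δ*sky1* untreated replicate 2 or 3 or W303 untreated replicate 1 or 2 (adjusted p from 0.0563 to 0.103). *LYS20* and *LYS21* encode near-identical enzymes, and how far each probe set also binds the other transcript cannot be read from these tables.

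**Figure D3:**
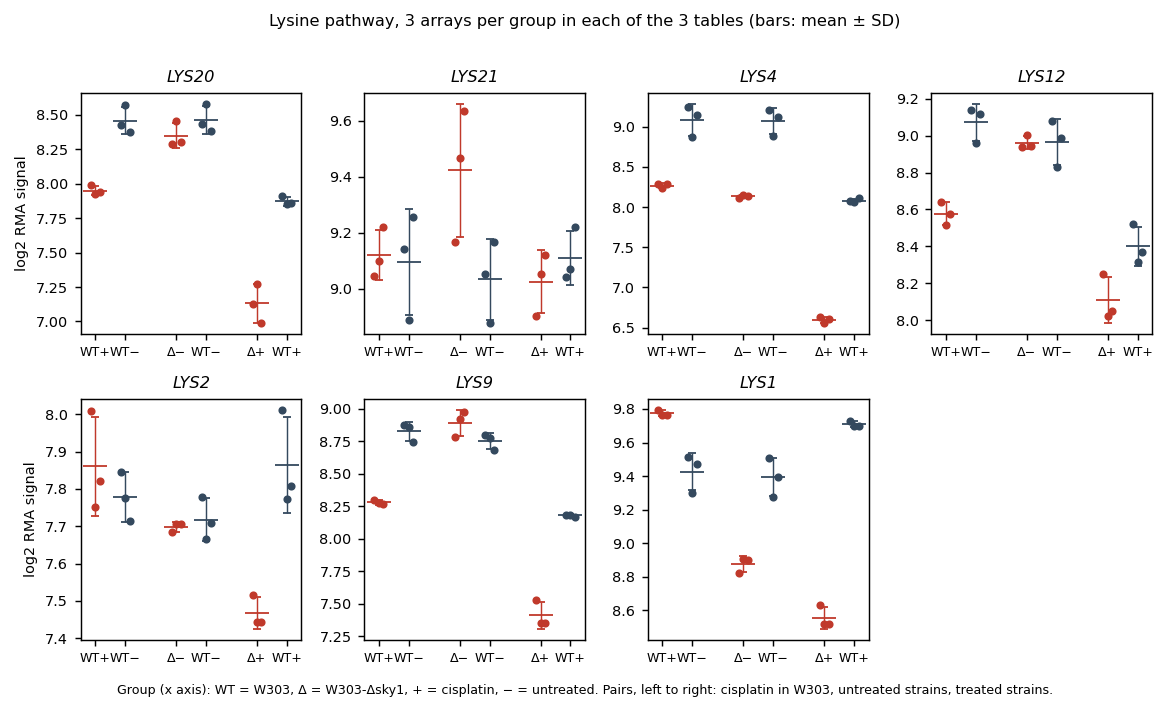
Log2 RMA signals of the 7 lysine genes in pathway order on every array, with the mean and SD of each group of 3. WT is W303, Δ is W303-Δ*sky1*, + is cisplatin and − untreated, and the pairs are cisplatin in W303, the untreated strains and the treated strains. The treated W303-Δ*sky1* arrays of *LYS4* lie at 6.56 to 6.63, below every other array of this gene.

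Aromatic genes included DEGs of either sign in both strain comparisons. The common branch leads from erythrose 4-phosphate to chorismate (*ARO3* or *ARO4*, then *ARO1* and *ARO2*), and from there *ARO7*, *PHA2*, *TYR1* and the aminotransferases *ARO8* and *ARO9* lead to phenylalanine and tyrosine. Of the 9 genes, 3 were higher and 3 lower in untreated W303-Δ*sky1* (median -0.13), and 2 were higher and 7 lower under cisplatin (median -0.48). These are 33.3% and 33.3%, and 22.2% and 77.8%, beside 24.9% and 27.4%, and 32.8% and 37.8% of all genes. *ARO4*, the first enzyme of the branch in the form that tyrosine inhibits, read 8.32, 8.41 and 8.40 on the W303-Δ*sky1* arrays without drug, against 7.31, 7.54 and 7.48 on the W303 arrays without drug. It was 1.91-fold higher (0.93, SE 0.077, adjusted p = 9.05e-05). *ARO4* under cisplatin read 8.00, 8.05 and 8.01 on the treated W303-Δ*sky1* arrays, against 7.01, 7.00 and 7.04 on the treated W303 arrays, 2.01-fold higher (1.01, SE 0.050, adjusted p = 6.85e-07). The strains were about 1 log2 unit apart with and without the drug. *ARO3*, the isozyme inhibited by phenylalanine, differed by -0.15 (SE 0.10) without the drug (adjusted p = 0.235) and was lower under it (-0.48, SE 0.050, adjusted p = 4.12e-05).

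*ARO9*, an aminotransferase that also starts the breakdown of aromatic amino acids, showed the largest difference of the 47 genes between the untreated strains. It read 8.65, 8.53 and 8.72 on the W303-Δ*sky1* arrays without drug, against 9.88, 10.01 and 9.90 on the W303 arrays without drug. That is 2.45-fold lower (-1.29, SE 0.073, adjusted p = 2.32e-05). In the treated strains *ARO9* read 9.26, 9.14 and 9.23 on the treated W303-Δ*sky1* arrays, against 10.18, 10.01 and 10.08 on the treated W303 arrays and was 1.84-fold lower (-0.88, SE 0.063, adjusted p = 4.26e-06). *ARO8*, the other aminotransferase, did not pass in the untreated strains (0.02, SE 0.073, adjusted p = 0.88) and was lower under cisplatin (-0.22, SE 0.074, adjusted p = 0.0243), a call lost without W303-Δ*sky1* cisplatin replicate 2 or 3 or W303 cisplatin replicate 1 or 3 (adjusted p from 0.0564 to 0.0852). In W303, *ARO9* read 10.27, 10.14 and 10.20 on the treated W303 arrays, against 9.95, 10.07 and 9.99 on the untreated W303 arrays and rose by 0.20 (SE 0.061) (adjusted p = 0.0438). The small rise stood near the threshold, with an adjusted p of 0.0631 with the replicate number as a block and of 0.0742 to 0.124 without any one of the W303 cisplatin arrays or W303 untreated replicate 1 or 3.

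*PHA2* and *TYR1* compete for prephenate, *PHA2* (prephenate dehydratase) toward phenylalanine and *TYR1* (prephenate dehydrogenase) toward tyrosine. *PHA2* read 3.53, 3.46 and 3.20 on the treated W303-Δ*sky1* arrays, against 4.26, 4.29 and 4.20 on the treated W303 arrays. It was 1.81-fold lower in treated W303-Δ*sky1* (-0.85, SE 0.088, adjusted p = 3.49e-05), and replicate 3 of that strain was the lowest. Between the untreated strains it read 3.75, 3.82 and 3.77 on the W303-Δ*sky1* arrays without drug, against 3.89, 3.85 and 3.99 on the W303 arrays without drug, a difference of -0.13 (SE 0.064) that did not pass (adjusted p = 0.124). In W303 *PHA2* read 4.36, 4.46 and 4.28 on the treated W303 arrays, against 3.95, 3.91 and 3.91 on the untreated W303 arrays and rose by 0.45 (SE 0.062) (adjusted p = 0.00206), the largest change of an aromatic gene with the drug. *TYR1* was lower in W303-Δ*sky1* without the drug (-0.34, SE 0.056, adjusted p = 0.00167) and with it (-0.66, SE 0.051, adjusted p = 6.88e-06).

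*ARO7*, chorismate mutase, gave calls that depended on the setting. It was lower in treated W303-Δ*sky1* (-0.53, SE 0.10, adjusted p = 0.0014). Untreated, it read 5.76, 5.89 and 5.74 on the W303-Δ*sky1* arrays without drug, against 5.89, 6.44 and 6.19 on the W303 arrays without drug, a difference of -0.38 (SE 0.13) with touching groups. The adjusted p of 0.0435 was 0.0624 to 0.114 without any one of the W303-Δ*sky1* untreated arrays or W303 untreated replicate 2 or 3. It was 0.0519 with the arrays centred on their median, 0.0567 after quantile and 0.0632 after cyclic loess normalization, and 0.0952 with all probe sets of the array tested. The effect of the drug in W303 was -0.32 (SE 0.13) (adjusted p = 0.114, 0.0267 with the replicate number as a block and 0.0222 without W303 untreated replicate 1). *ARO1*, the pentafunctional enzyme of the common branch, was higher in W303-Δ*sky1* without (0.26, SE 0.061) and with cisplatin (0.29, SE 0.054). *ARO2*, chorismate synthase, was higher without the drug (0.26, SE 0.076, adjusted p = 0.0229) and lower with it (-0.31, SE 0.12, adjusted p = 0.0477). The first call was lost without W303-Δ*sky1* untreated replicate 1 or 3 or W303 untreated replicate 2 or 3 (adjusted p from 0.0554 to 0.0797), and the second without W303-Δ*sky1* cisplatin replicate 2 or 3 or W303 cisplatin replicate 1 (0.119 to 0.159). *ARO4* was the aromatic gene that fell with cisplatin in W303 (-0.44, SE 0.076, adjusted p = 0.00527).

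**Figure D4:**
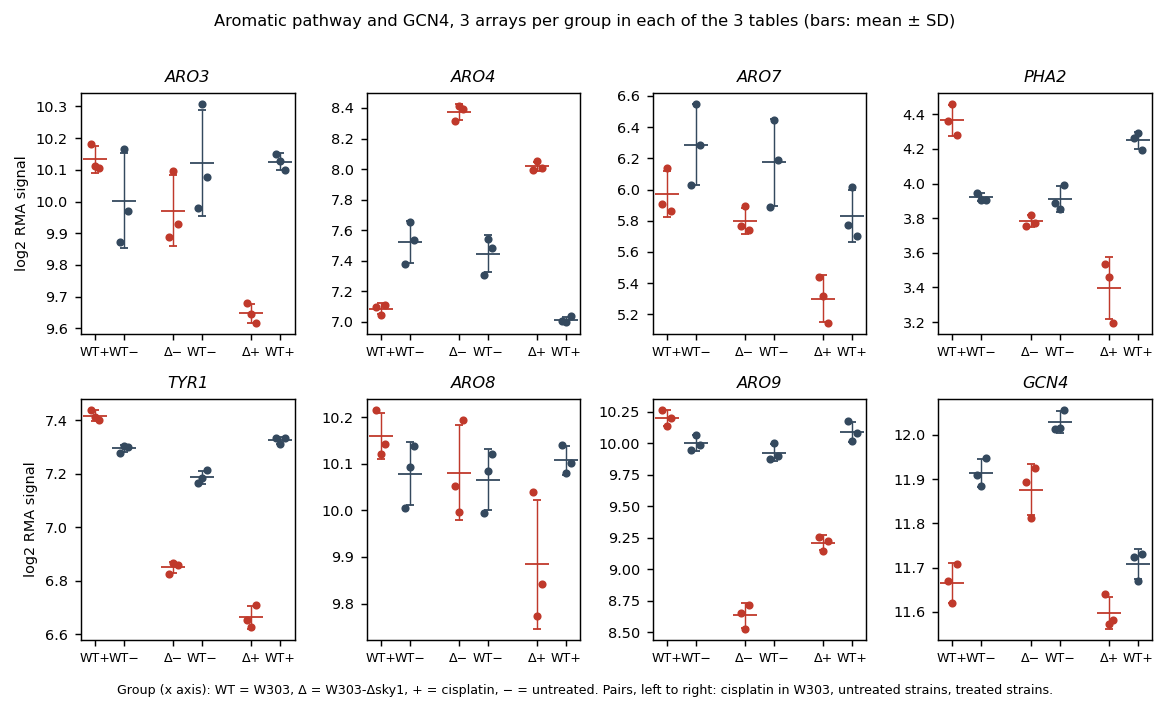
Log2 RMA signals of *GCN4* and 7 aromatic genes on every array, with the mean and SD of each group of 3. WT is W303, Δ is W303-Δ*sky1*, + is cisplatin and − untreated, and the pairs are cisplatin in W303, the untreated strains and the treated strains. *ARO4* lies at 8.00 to 8.41 in W303-Δ*sky1* and at 7.00 to 7.65 in W303, and *ARO9* at 8.53 to 9.26 against 9.88 to 10.27.

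Isoleucine and valine share enzymes, and in untreated W303-Δ*sky1* 5 of the 7 genes were higher and 1 lower, with a median of 0.39. That is 71.4% and 14.3%, beside 24.9% and 27.4% of all genes. *ILV3*, dihydroxyacid dehydratase, read 10.41, 10.37 and 10.36 on the W303-Δ*sky1* arrays without drug, against 9.71, 9.62 and 9.65 on the W303 arrays without drug. It was 1.64-fold higher (0.72, SE 0.058, adjusted p = 8.36e-05), with all of its arrays above those of W303. *ILV6*, the regulatory subunit of acetolactate synthase, read 9.84, 9.98 and 9.87 on the W303-Δ*sky1* arrays without drug, against 9.32, 9.32 and 9.27 on the W303 arrays without drug and was higher by 0.60 (SE 0.063) (adjusted p = 0.000207). *ILV1*, threonine deaminase, the entry to isoleucine, was higher by 0.56 (SE 0.068) (adjusted p = 0.000395). Under cisplatin 3 of the 7 were higher and 2 lower, with a median of -0.01. That is 42.9% and 28.6%, beside 32.8% and 37.8% of all genes. *ILV6* read 9.85, 9.72 and 9.59 on the treated W303-Δ*sky1* arrays, against 9.25, 9.21 and 9.14 on the treated W303 arrays, 1.44-fold higher (0.52, SE 0.075, adjusted p = 0.000258). *ILV3* was higher by 0.48 (SE 0.075) (adjusted p = 0.000443). Every W303-Δ*sky1* array of both genes lay above those of W303, and neither gene reached 1.6-fold under the drug. *ILV1* was higher by 0.20 (SE 0.067) (adjusted p = 0.0255), which was lost without W303-Δ*sky1* cisplatin replicate 1 or W303 cisplatin replicate 2 or 3 (0.0648 to 0.0969). *ILV5*, the reductoisomerase, was lower (-0.19, SE 0.059, adjusted p = 0.0183), lost without W303-Δ*sky1* cisplatin replicate 2 or 3 or W303 cisplatin replicate 1 or 2 (0.0506 to 0.0671).

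*ILV2*, the catalytic subunit of acetolactate synthase, was higher in untreated W303-Δ*sky1* (0.36, SE 0.065, adjusted p = 0.00261). Under cisplatin it read 9.56, 9.56 and 9.55 on the treated W303-Δ*sky1* arrays, against 9.74, 9.63 and 9.64 on the treated W303 arrays, a difference of -0.12 (SE 0.054) (adjusted p = 0.0853). Cisplatin in W303 gave a difference of 0.18 (SE 0.059) for *ILV2*, just outside the threshold (adjusted p = 0.0533, 0.0395 with the replicate number as a block and 0.0401 without W303 untreated replicate 1). *BAT2*, the cytosolic branched-chain aminotransferase, changed with the drug in W303. It read 10.16, 10.18 and 10.20 on the treated W303 arrays, against 10.74, 10.69 and 10.67 on the untreated W303 arrays and fell 1.43-fold (-0.52, SE 0.052, adjusted p = 0.000497). *BAT1*, its mitochondrial counterpart, differed by 0.15 (SE 0.058) (adjusted p = 0.0977). With a trended and robust variance the drug difference passed for *ILV2* (adjusted p = 0.0301), *ILV3* (-0.16, adjusted p = 0.0472) and *BAT1* (adjusted p = 0.0432), and that of *ILV2* also passed after quantile (0.0266) and cyclic loess normalization (0.0276). *BAT2* was lower in W303-Δ*sky1* without and with cisplatin (-0.23, SE 0.060 and -0.24, SE 0.049), while *BAT1* was higher without it (0.39, SE 0.074) and did not pass with it (-0.01, SE 0.056, adjusted p = 0.904).

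All 4 leucine genes were higher in untreated W303-Δ*sky1*, with a median of 0.37, where 24.9% of all genes were higher. *LEU4*, the main isopropylmalate synthase, read 11.39, 11.25 and 11.27 on the W303-Δ*sky1* arrays without drug, against 10.76, 10.57 and 10.64 on the W303 arrays without drug and was higher by 0.65 (SE 0.073) (1.57-fold, adjusted p = 0.000288). In the treated strains *LEU4* read 11.30, 11.19 and 11.24 on the treated W303-Δ*sky1* arrays, against 10.78, 10.67 and 10.72 on the treated W303 arrays and was higher by 0.52 (SE 0.057) (adjusted p = 5.25e-05). *LEU9*, the second isopropylmalate synthase, was higher by 0.19 (SE 0.065) (adjusted p = 0.0371) and *LEU1*, isopropylmalate isomerase, by 0.24 (SE 0.086) (adjusted p = 0.0467) in the untreated strain. Both calls stood near the threshold. That of *LEU9* was lost without any one of the W303-Δ*sky1* untreated arrays or W303 untreated replicate 2 or 3 (0.0653 to 0.107), and that of *LEU1* without W303-Δ*sky1* untreated replicate 2 or 3 or any one of the W303 untreated arrays (0.0563 to 0.144). *LEU9* differed between the treated strains by 0.09 (SE 0.063) (adjusted p = 0.226), and by 0.16 (adjusted p = 0.0277) after quantile normalization and 0.19 (adjusted p = 0.0182) after cyclic loess normalization. In W303 under cisplatin, *LEU9* read 5.27, 5.07 and 5.17 on the treated W303 arrays, against 5.89, 5.78 and 5.79 on the untreated W303 arrays. It fell 1.57-fold (-0.65, SE 0.068, adjusted p = 0.000588), the second largest decrease of the 47 genes with the drug after *LYS4*. *LEU4* differed by 0.15 (SE 0.054) there (adjusted p = 0.0674), and the share of cross-hybridization between these similar genes is unknown.

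*LEU2*, isopropylmalate dehydrogenase, has a mutant allele in the W303 background, and its transcript was well above background. Whether the deletion marker brought a further copy into W303-Δ*sky1* is not given in the sources used here. In W303 it read 8.72, 8.64 and 8.68 on the treated W303 arrays, against 9.31, 8.86 and 9.12 on the untreated W303 arrays and fell by 0.42 on the log2 scale (SE 0.11, adjusted p = 0.0248). The untreated arrays were widely spread, and the adjusted p was 0.0639 to 0.0818 without any one of the W303 cisplatin arrays or W303 untreated replicate 3. In the untreated strains it read 9.49, 9.58 and 9.62 on the W303-Δ*sky1* arrays without drug, against 9.24, 8.81 and 9.11 on the W303 arrays without drug, a difference of 0.51 (SE 0.11) (adjusted p = 0.00588). For the treated strains the values were 8.51, 8.39 and 8.41 on the treated W303-Δ*sky1* arrays, against 8.69, 8.66 and 8.66 on the treated W303 arrays, a difference of -0.23 (SE 0.055) (adjusted p = 0.00493). *LEU2* was thus higher in W303-Δ*sky1* without the drug and lower with it, with no overlap in either comparison.

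*HIS4*, *HIS5* and *HIS7* rose with cisplatin in W303 and were lower in treated W303-Δ*sky1* than in treated W303. Both comparisons use the same W303 cisplatin arrays, so they are not independent. In W303 with cisplatin, 3 of the 7 histidine genes rose and none fell (median -0.04). In untreated W303-Δ*sky1* 2 were higher and 1 lower (median 0.14), and under cisplatin 2 were higher and 5 lower (median -0.22). These are 42.9% and 0%, 28.6% and 14.3%, and 28.6% and 71.4% of the 7. The shares of all genes were 13.2% and 15.3%, 24.9% and 27.4%, and 32.8% and 37.8%. *HIS7*, which joins the pathway to purine synthesis by releasing an intermediate of it, rose most with the drug. It read 6.79, 6.72 and 6.66 on the treated W303 arrays, against 6.27, 6.39 and 6.31 on the untreated W303 arrays, a rise of 0.40 (SE 0.061) (1.32-fold, adjusted p = 0.00305). Under cisplatin it read 6.25, 6.10 and 6.11 on the treated W303-Δ*sky1* arrays, against 6.85, 6.69 and 6.63 on the treated W303 arrays and was 1.49-fold lower in W303-Δ*sky1* (-0.57, SE 0.074, adjusted p = 0.000139). No array of one group reached those of the other in either case. Without the drug the strains differed by 0.14 (SE 0.075) (adjusted p = 0.147, 0.0268 without W303 untreated replicate 2). *HIS5*, the aminotransferase, rose by 0.33 (SE 0.061) with the drug (adjusted p = 0.00685). *HIS4*, a trifunctional enzyme, rose by 0.31 (SE 0.076) (adjusted p = 0.0214, 0.0549 to 0.0709 without any one of the W303 cisplatin arrays or W303 untreated replicate 3).

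*HIS6*, the isomerase of the middle of the pathway, was the histidine gene with the largest strain difference without drug. It read 4.93, 4.95 and 5.06 on the W303-Δ*sky1* arrays without drug, against 5.56, 5.81 and 5.60 on the W303 arrays without drug. The difference of -0.68 (SE 0.082) was just short of the DEG threshold (adjusted p = 0.000389), with no overlap. Under cisplatin *HIS6* (-0.51, SE 0.061, adjusted p = 9.36e-05), *HIS4* (-0.30, SE 0.055, adjusted p = 0.00114) and *HIS5* (-0.15, SE 0.055, adjusted p = 0.0329) were lower. The call of *HIS5* was lost without W303-Δ*sky1* cisplatin replicate 1 or 3 or any one of the W303 cisplatin arrays (0.0536 to 0.107). *HIS1*, the phosphoribosyltransferase of the first step, was higher in untreated W303-Δ*sky1* (0.39, SE 0.060, adjusted p = 0.00121) and lower under cisplatin (-0.22, SE 0.052, adjusted p = 0.0052). *HIS2*, the phosphatase, was higher in both (0.41, SE 0.079 and 0.28, SE 0.073).

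*HIS3*, imidazoleglycerol-phosphate dehydratase, was the most variable histidine gene. It read 6.98, 7.12 and 6.91 on the W303-Δ*sky1* arrays without drug, against 6.50, 7.12 and 6.70 on the W303 arrays without drug. W303 untreated replicate 2 equalled the highest W303-Δ*sky1* array, and the difference of 0.23 (SE 0.15) did not pass (adjusted p = 0.234, 0.00943 without that array). For the drug in W303 the values were 6.86, 6.83 and 6.75 on the treated W303 arrays, against 6.68, 7.26 and 6.87 on the untreated W303 arrays, a difference of -0.12 (SE 0.13) with overlapping groups (adjusted p = 0.526). Between the treated strains it read 7.10, 6.95 and 6.76 on the treated W303-Δ*sky1* arrays, against 6.74, 6.67 and 6.62 on the treated W303 arrays, a difference of 0.26 (SE 0.086) (adjusted p = 0.024, 0.055 to 0.0762 without W303-Δ*sky1* cisplatin replicate 1 or 2 or W303 cisplatin replicate 2 or 3). The study's methods list a mutant allele of this gene for the W303 background, and the marker of the deletion is not given.

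Of the 4 tryptophan genes, *TRP3*, *TRP4* and *TRP5* changed in at least 1 comparison. Each comparison had at most 1 of the 4 (25%) higher and 1 lower. The medians were -0.15, 0.04 and -0.03 for the drug in W303, the untreated strains and the treated strains. In the same order, 13.2% and 15.3%, 24.9% and 27.4%, and 32.8% and 37.8% of all genes were higher and lower. *TRP3*, a bifunctional enzyme with a part in anthranilate synthase, read 7.97, 8.14 and 7.97 on the W303-Δ*sky1* arrays without drug, against 7.26, 7.47 and 7.39 on the W303 arrays without drug. It was higher by 0.65 (SE 0.081) (1.57-fold, adjusted p = 0.000445), and its groups were well apart. *TRP3* under cisplatin read 7.34, 7.30 and 7.39 on the treated W303-Δ*sky1* arrays, against 7.16, 7.16 and 7.16 on the treated W303 arrays and was higher by 0.19 (SE 0.051) (adjusted p = 0.0101). *TRP5*, tryptophan synthase, was lower in treated W303-Δ*sky1*, reading 10.34, 10.17 and 10.17 on the treated W303-Δ*sky1* arrays, against 10.70, 10.55 and 10.53 on the treated W303 arrays (-0.37, SE 0.072, adjusted p = 0.0017). In W303 *TRP5* read 10.74, 10.58 and 10.57 on the treated W303 arrays, against 10.43, 10.41 and 10.39 on the untreated W303 arrays and rose by 0.22 (SE 0.063) (adjusted p = 0.0343). *TRP4*, anthranilate phosphoribosyltransferase, read 6.15, 6.13 and 6.03 on the treated W303 arrays, against 6.23, 6.43 and 6.38 on the untreated W303 arrays and fell by 0.24 on the log2 scale (adjusted p = 0.0347). Both calls were lost without any one of the W303 cisplatin arrays or W303 untreated replicate 2 or 3, *TRP5* with adjusted p of 0.0549 to 0.109 and *TRP4* of 0.0625 to 0.125. *TRP2*, the other subunit of anthranilate synthase, was the single gene of the 47 that passed in no comparison.

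Across the pathways, the strain difference was set side by side without and with cisplatin. Between them, 12 genes were higher in W303-Δ*sky1* in both, and 7 were lower in both (*HIS6*, *BAT2*, *LYS1*, *LYS4*, *ARO7*, *ARO9* and *TYR1*, of which *ARO7* was lost without the drug under the settings above). Another 3 were higher without and lower with the drug (*HIS1*, *LEU2* and *ARO2*), and none went the other way. Both calls of *ARO2* were lost when single arrays were left out, as given above. A further 7 passed only without the drug and 15 only with it. These splits were not counted over all genes. Of all genes, 24.9% were higher and 27.4% lower without the drug, and 32.8% and 37.8% with it. The strain difference was more negative under cisplatin for 37 of the 47 genes, with a median change of -0.26 on the log2 scale. Over the 5697 genes with the same probe set in both comparisons, it was more negative for 3035, with a median change of -0.02. A more negative difference was found for 7 of 7 lysine genes (median -0.55), 7 of 7 of isoleucine and valine (-0.24) and 4 of 4 of leucine (-0.15). It was found for 5 of 8 arginine genes (-0.24), 5 of 7 of histidine (-0.22), 3 of 4 of tryptophan (-0.27) and 6 of 9 aromatic genes (-0.24). For *GCN4* the change was 0.04. The arrays of both differences are separate, and the tables were normalized separately, so no test of the change was made.

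**Figure D5:**
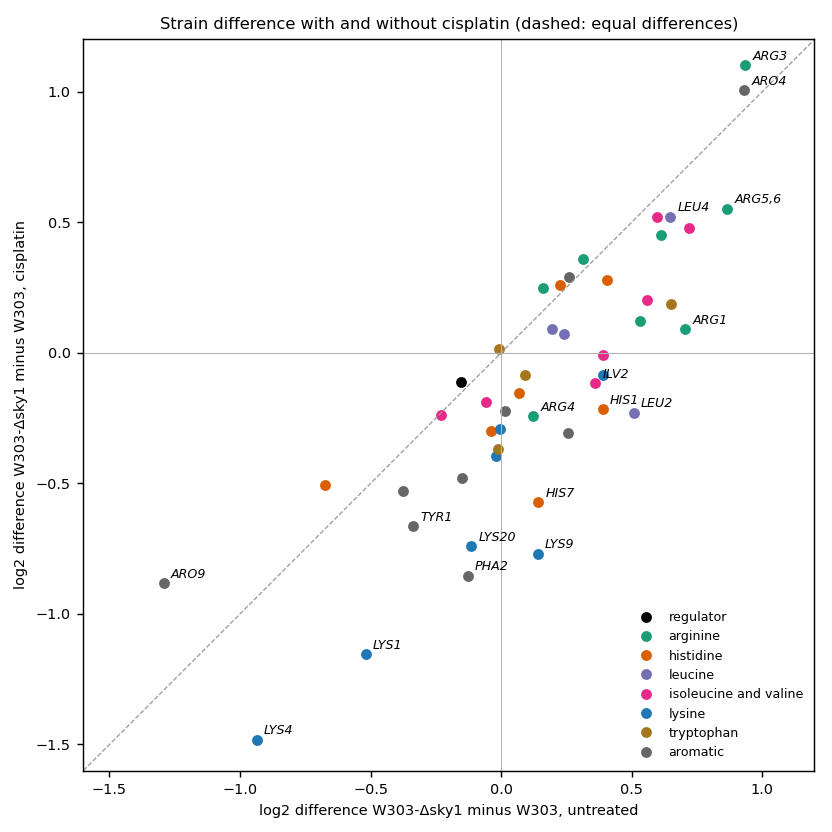
Log2 difference of W303-Δ*sky1* from W303 under cisplatin (vertical axis) against the same difference in untreated cells (horizontal axis), 1 point per gene, coloured by pathway. Points below the dashed line had a more negative difference under cisplatin, 37 of the 47 genes. *LYS4* lies at -0.94 and -1.48, and *ARG3* at 0.93 and 1.10.

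Genes around these pathways were described in the same way. Of 16 measured regulators and accessory genes, 2 were higher and 3 lower with cisplatin in W303 (median 0.02), 6 higher and 4 lower between the untreated strains (0.07) and 10 higher and 4 lower between the treated ones (0.27). These are 12.5% and 18.8%, 37.5% and 25%, and 62.5% and 25% of the 16, beside 13.2% and 15.3%, 24.9% and 27.4%, and 32.8% and 37.8% of all genes. *OAC1*, a mitochondrial carrier of oxaloacetate and isopropylmalate, read 7.59, 7.47 and 7.46 on the treated W303-Δ*sky1* arrays, against 9.13, 9.06 and 9.09 on the treated W303 arrays. It was 3.01-fold lower in treated W303-Δ*sky1* (-1.59, SE 0.057, adjusted p = 2.24e-07) and 1.65-fold lower in the untreated strain (-0.73, SE 0.071, adjusted p = 0.000152). Its direction was opposite to that of *LEU4*, an enzyme that makes isopropylmalate. Under cisplatin *LYS5*, whose product activates the Lys2 enzyme, was higher by 0.79 (SE 0.051) (adjusted p = 2.67e-06). *GCN3*, a subunit of eIF2B, the exchange factor that is inhibited by the eIF2 that Gcn2 phosphorylates, was lower (-0.75, SE 0.057, adjusted p = 6.19e-06). *ARG80*, a regulator of arginine genes, changed most with the drug in W303 (-0.67, SE 0.076, adjusted p = 0.000857). *LYS14* fell with it as well (-0.48, SE 0.059, adjusted p = 0.0012) and did not pass between the untreated strains (0.18, adjusted p = 0.103). *LEU3* was higher in untreated W303-Δ*sky1* (0.47, SE 0.10, adjusted p = 0.00676) and did not pass with cisplatin in W303 (0.19, adjusted p = 0.0951).

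Amino acid breakdown genes rose with cisplatin in W303 in 6 of 9 cases and fell in 1, with a median of 0.60. That is 66.7% and 11.1%, beside 13.2% and 15.3% of all genes. The genes that rose were *PUT1*, *ARO10*, *CHA1* and, of the glycine cleavage system alone, *GCV1*, *GCV2* and *GCV3*. The study had already reported *GCV1* and *GCV3* as higher on these arrays. *CAR1* fell (-0.27, adjusted p = 0.0085), and *CAR2* (-0.18) and *PUT2* (-0.08) did not pass. *GCV1*, of the glycine cleavage system, read 9.78, 9.72 and 9.66 on the treated W303 arrays, against 8.06, 8.39 and 8.16 on the untreated W303 arrays and rose 2.86-fold (adjusted p = 3.45e-05), and *GCV2*, *GCV3* and *PUT1*, proline oxidase, were DEGs as well. Between the strains none was higher and 3 lower without the drug, and 3 higher and 4 lower with it. These are 0% and 33.3%, and 33.3% and 44.4%, beside 24.9% and 27.4%, and 32.8% and 37.8% of all genes. *CHA1*, the catabolic serine and threonine deaminase, read 7.40, 7.43 and 7.41 on the treated W303-Δ*sky1* arrays, against 9.40, 9.57 and 9.46 on the treated W303 arrays. It was 4.19-fold lower in treated W303-Δ*sky1* (-2.07, SE 0.059, adjusted p = 8.16e-08) and 2.74-fold lower in the untreated strain (-1.46, SE 0.13, adjusted p = 0.000125). *ARO10*, a decarboxylase of the Ehrlich pathway that follows *ARO9* in aromatic breakdown, was lower without the drug (-0.93, SE 0.095, adjusted p = 0.000188) and with it (-1.13, SE 0.098, adjusted p = 1.36e-05). *ARO9* and *ARO10* were both DEGs in the same direction in both strain comparisons. Their activator *ARO80* was higher by 0.28 (SE 0.089) (adjusted p = 0.0302) and 0.19 (SE 0.075) (adjusted p = 0.0486). A link between regulators and their target genes was not tested.

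Other amino acid synthesis genes, of the glutamate, aspartate and serine families, were lower in treated W303-Δ*sky1* in 15 of 21 cases and higher in 2. Their median was -0.54. That is 71.4% lower and 9.5% higher, beside 37.8% and 32.8% of all genes. *GLN1*, glutamine synthetase, read 7.64, 7.51 and 7.60 on the treated W303-Δ*sky1* arrays, against 9.47, 9.39 and 9.42 on the treated W303 arrays, 3.59-fold lower (-1.84, SE 0.057, adjusted p = 1.09e-07). Without drug 4 (19.0%) were higher and 9 (42.9%) lower (median -0.12), led by *GDH3*, a glutamate dehydrogenase, at -1.87 (SE 0.11) (adjusted p = 2.69e-05). Of all genes, 24.9% were higher and 27.4% lower. With cisplatin in W303 5 rose and 3 fell (median -0.05), led by *SER33*, a phosphoglycerate dehydrogenase of serine synthesis, which rose 5.76-fold (adjusted p = 8.76e-08). The shares that rose and fell were 23.8% and 14.3%, beside 13.2% and 15.3% of all genes. All 10 sulfur amino acid genes examined rose with the drug in W303, with a median of 2.49, beside pathway medians of -0.49 to 0.12 among the 47 genes. The largest of them was *MET3*, ATP sulfurylase, at 12.9-fold (adjusted p = 1.88e-08). The study had already reported all 10 as higher with cisplatin on these same arrays, so their common rise follows from the choice of genes. Between the treated strains all 10 were lower (median -1.11), and between the untreated strains 1 was higher and 6 lower (median -0.38). Of all genes, 13.2% rose with the drug, 37.8% were lower between treated strains, and 24.9% were higher and 27.4% lower between untreated ones.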

How the data were processed

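The authors processed the 12 arrays by RMA, 6 arrays at a time in 3 runs, and the deposited tables hold 1 log2 signal per probe set and array. Further deposited columns hold the authors' group means, fold changes and p-values from limma, and none of them was used. The 18 sample columns were matched to samples by the labels.

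The tables list 10715 probe sets, 5714 of *S. cerevisiae*. Where a gene had more probe sets (16 genes), the brightest on average was used, which left 5698 genes. Tests were run per table, 3 arrays against 3, by moderated linear models (limma 3.58.1, R 4.3.3) with p-values adjusted by Benjamini-Hochberg over all 5698 genes, and the procedure was tested on simulated data. The number of arrays limits the precision, with a median SD within a group of 0.08, 0.09 and 0.07 on the log2 scale for cisplatin in W303, the untreated strains and the treated strains. Of the 47 symbols, all matched. Among the companion lists, *TRP1* had no match in the tables used here and *GCV3* was matched by its locus tag. Every member could be named, and full array values are given for *GCN4*, *LEU2*, *HIS3*, each DEG and the largest change of each pathway. The members and lists were chosen with earlier results of these data known. Paralogous enzymes can share hybridization, which these tables do not separate, and levels of different probe sets were not compared.

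Pairing of the arrays by replicate number was checked on the residuals of each gene from its group mean. Arrays of the same number correlated with 0.26, 0.21 and 0.32 (drug in W303), 0.26, 0.22 and 0.43 (untreated strains) and 0.44, 0.34 and 0.29 (treated strains), those of other numbers with at most 0.13. Within W303 the pairing comes from the divided cultures, and between the strains from these correlations alone. The alternatives were the replicate number as a block, other probe sets, filters, normalizations, variance models and thresholds, and each array left out in turn.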

Additional observations from a re-analysis of the deposited data

Results flagged for a closer look

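In 4 of the 47 genes every W303-Δ*sky1* array lay on one side of every W303 array without cisplatin and on the other side with it. How many of all genes tested showed such a reversal was not counted. The difference between these effects was not tested because the tables were normalized separately. *LEU2* differed by 0.51 between the untreated strains and by -0.23 between the treated strains. For *HIS1* these differences were 0.39 and -0.22. For *ILV2* they were 0.36 and -0.12, and for *ARG4* 0.12 and -0.24. The difference of *ILV2* under cisplatin and that of *ARG4* without it did not pass the test (limma, adjusted p = 0.0853 and 0.112).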

How the results depend on the processing

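With 3 arrays in each group, calls with an adjusted p near 0.05 moved with the setting, and those of cisplatin in W303 moved most. In W303 the number of genes higher with cisplatin was 6 with all probe sets of the array tested and 6 at an adjusted p under 0.01, against 10. The DEGs numbered 0 higher with the arrays centred on their median, when *ARG7* stood at 0.67. At a 2-fold threshold they numbered 0 higher and 0 lower with cisplatin in W303, 0 and 1 in untreated W303-Δ*sky1*, and 2 lower in treated W303-Δ*sky1*. The median difference between the treated strains was -0.081 with the arrays centred on their median. Without each array in turn, genes higher and lower with cisplatin in W303 numbered 6 to 10 and 7 to 12, with 0 to 1 and 1 to 2 DEGs and a median of -0.016 to 0.0060. Between the untreated strains they numbered 18 to 20 and 6 to 7, with 5 to 6 and 2 to 3 DEGs and a median of 0.11 to 0.19. Between the treated strains they numbered 12 to 15 and 19 to 22, with 2 and 6 DEGs in every case and a median of -0.14 to -0.12. With the replicate number as a block, 10 genes were higher and 11 lower with cisplatin in W303, 22 and 7 in untreated W303-Δ*sky1*, and 14 and 23 in treated W303-Δ*sky1*. That pairing changed the calls of *ILV2*, *ARO7* and *ARO9* with cisplatin in W303 and no other call among the 47 genes. Of 1974 alternative values of the 141 differences, 1847 kept direction and side of the threshold, 102 lost and 25 gained a call, and 0 turned direction across a call. The gains include *GCN4*, lower in untreated W303-Δ*sky1* after quantile normalization (-0.22, limma, adjusted p = 0.0142) or with a trended variance (adjusted p = 0.0125), and between the treated strains with a trended variance (adjusted p = 0.0285). The causes were not tested.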
